A study of Mus musculus with 8 samples.

Results

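The kidneys of G9a knockout mice were set against those of wild-type mice on day 3 after ischemia-reperfusion, across all genes with a level high enough to test. The comparison holds 4 of the 8 libraries of the series, KO_IR replicates 1 and 2 and WT_IR replicates 1 and 2, chosen by their labels. KO_IR carries a knockout of Ehmt2 made specific to the kidney, and WT_IR is wild type of the same age. Ehmt2 encodes G9a, a histone methyltransferase. Both are adult males of the C57BL/6 strain in which the vessels of the left kidney had been clamped for 45 min and then released. KO and WT are kidneys of the same genotypes in the series' other 4 libraries. The labels do not say whether these came from unoperated mice or were the non-injured kidney of operated ones. Each library is polyadenylated RNA of whole kidney pooled from 3 mice, so errors here describe how pools vary. No source used here names the Cre driver, the kidney cells in which the gene was deleted or the hour of harvest.

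G9a places methyl groups on H3K9, a mark of closed chromatin, and works as a complex with its partner Ehmt1. Clamping and releasing the renal artery injures above all the proximal tubule, the segment that reclaims most of the filtered salt, sugar, amino acids and small proteins and that lives on mitochondrial respiration. Surviving tubule cells lose transporters and metabolic enzymes for some days, switch on injury genes and chemokines, and divide, while macrophages enter and matrix genes are switched on. In whole kidney RNA, fewer cells of a type and less RNA of a gene per cell cannot be told apart, which touches every result given here.

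Levels are FPKM, fragments relative to gene length and library size, and differences are KO_IR minus WT_IR on the log2(FPKM + 1) scale. A gene is called where the limma p adjusted over all 15607 genes tested was under 0.05. The libraries held 17473404 and 15158055 fragments on genes in KO_IR, and 14965670 and 17020905 in WT_IR. Mitochondrially encoded genes took 7.54% and 7.08% of these in KO_IR, against 3.99% and 4.15% in WT_IR, and 7.82% to 8.53% in the libraries without ischemia. The deposited values already carry a scaling between libraries. On a TPM scale, which removes it and sets every library to the same summed level, the median difference of all genes was -0.33 instead of -0.0077. Differences given here are therefore relative to the deposited scaling, and genes whose sign turns on another scale are named as such.

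Ehmt2 (chromosome 17, 34898469 to 34914052 on the plus strand in GRCm38.p6) was still present in the knockout kidneys. It measured 27.3 and 26.3 FPKM in KO_IR, against 34.5 and 35.8 FPKM in WT_IR, and 28.1 and 26.4 FPKM in KO, against 33.4 and 30.3 FPKM in WT. Between KO and WT, without ischemia, Ehmt2 was not called. Both KO_IR libraries lay below both WT_IR libraries, at 76.2% of the WT_IR mean, a difference of -0.38 ± 0.083 (SE, limma adjusted p = 0.014). The call ended without KO_IR replicate 2, WT_IR replicate 1 or WT_IR replicate 2 (adjusted p up to 0.0785). The partner gene Ehmt1 measured 4.88 and 5.38 FPKM in KO_IR, against 5.80 and 5.20 FPKM in WT_IR, a difference of -0.085 ± 0.097 (SE, limma adjusted p = 0.554), with overlapping groups.

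Of 15607 genes, 4689 were called between KO_IR and WT_IR, a share of 30.0%. Of these, 2583 were higher in KO_IR (16.6% of all genes tested) and 2106 were lower (13.5%), with median differences of 0.71 and -0.67. At least 2-fold differences were called in 682 higher and 456 lower genes, together 7.29%. In all 4689 called genes the 2 libraries of KO_IR lay apart from the 2 of WT_IR, as they did in 67.1% of all genes tested. Where such a separation is given for a called gene, it describes the values and adds no support to the call. The calls were 55.1% higher genes on the deposited scale. On the TPM scale 1432 genes were called higher and 5917 lower, so that 19.5% of the calls were higher genes. These were 9.18% of all genes called higher and 37.9% called lower, together 47.1%, the shares beside which counts on the TPM scale stand. Without ischemia, 34 genes were called between KO and WT (0.218%), 25 higher (0.16%) and 9 lower (0.0577%), against 1854 at an unadjusted p under 0.05. That count was 0 without KO replicate 1 or WT replicate 1 and between 1 and 17 without any other single library.

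**Figure D1:**
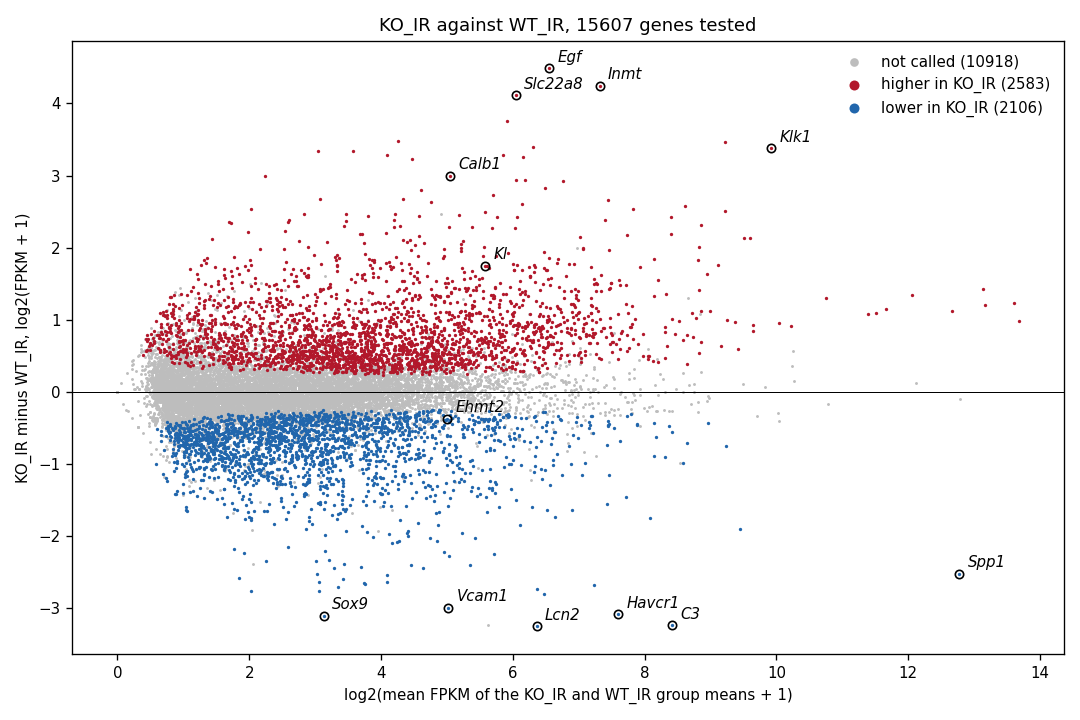
Difference between KO_IR and WT_IR (log2(FPKM + 1), vertical axis) against mean level (log2 scale, horizontal axis) for 15607 genes, each a point, with 2583 called higher in red and 2106 called lower in blue. Egf, Inmt and Slc22a8 stand at the top, and Lcn2, C3 and Sox9 at the bottom.

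The strongest differences fell into opposite classes. Genes of differentiated tubules were higher in KO_IR, and genes of the injured tubule and of inflammation were lower. Among protein-coding genes that averaged 2 FPKM or more in one of the groups, the 15 with the largest rise were Egf, Inmt, Slc22a8, Hpd, Nccrp1, S100g, Slc7a13, Klk1, Cyp2d12, Ttr, Ces1e, Ces1d, Atp4a, Calb1 and Pvalb. The 15 with the largest fall were Lcn2, C3, Sox9, Havcr1, Vcam1, Fgg, Serpina3n, Fga, Prrg4, Hspb1, Tlr2, Krt20, Fgb, Cxcl1 and Rhou. The call of Havcr1 ended without KO_IR replicate 1, WT_IR replicate 1 or WT_IR replicate 2 (adjusted p up to 0.0696) and that of Fga without KO_IR replicate 2 or WT_IR replicate 2 (adjusted p up to 0.0786). The other 28 calls stood in every fit that left out 1 library.

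**Figure D2:**
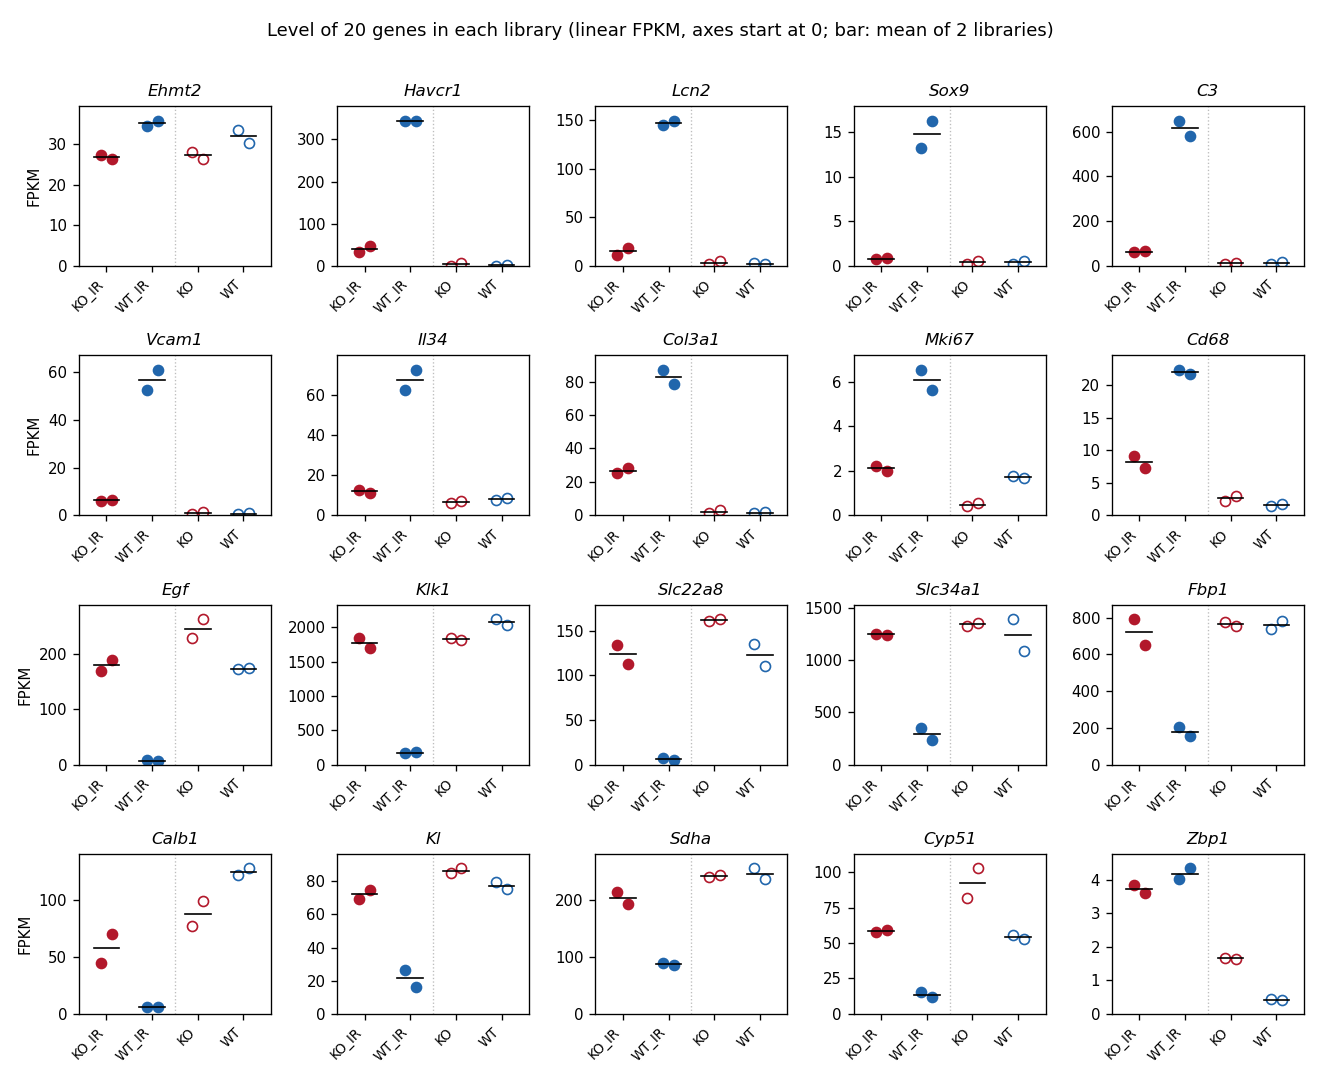
FPKM of 20 genes in each of the 8 libraries, on linear axes that start at 0, with KO_IR and WT_IR as filled and KO and WT as open circles, knockout in red and wild type in blue. Bars are means of 2 libraries. Havcr1, Lcn2, Sox9, C3 and Vcam1 are high in the WT_IR libraries, where Egf, Klk1, Slc22a8, Slc34a1 and Calb1 are low.

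Injury genes of the tubule were lower in KO_IR. Of 23 such genes tested, 17 were called lower and the other 6 were not called, with a median difference of -1.36 beside -0.0077 for all genes. Havcr1, which encodes the phosphatidylserine receptor KIM-1 of injured proximal tubule, measured 33.1 and 47.3 FPKM in KO_IR, against 344 and 345 FPKM in WT_IR. The WT_IR libraries were nearly equal and both KO_IR libraries far below them, a difference of -3.09 ± 0.67 (SE, limma adjusted p = 0.0133). Lcn2, which encodes the iron-carrier binding protein NGAL, measured 11.1 and 18.96 FPKM in KO_IR, against 145 and 149.8 FPKM in WT_IR, a difference of -3.26 ± 0.41 (SE, limma adjusted p = 0.00175). Without ischemia both genes were low, Havcr1 at 0.593 and 7.50 FPKM in KO, against 0.828 and 1.23 FPKM in WT and Lcn2 at 1.54 and 5.13 FPKM in KO, against 2.82 and 1.95 FPKM in WT.

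Sox9, a transcription factor of regenerating tubule cells, measured 0.742 and 0.899 FPKM in KO_IR, against 13.2 and 16.3 FPKM in WT_IR. The KO_IR libraries stood close to those without ischemia, at 0.232 and 0.588 FPKM in KO, against 0.254 and 0.516 FPKM in WT. The difference was -3.11 ± 0.18 (SE, limma adjusted p = 0.000256). Cd44, a hyaluronan receptor, measured 1.91 and 2.11 FPKM in KO_IR, against 17.1 and 13.8 FPKM in WT_IR, and Krt20, a keratin of injured tubule, 4.75 and 2.79 FPKM in KO_IR, against 28.1 and 28.3 FPKM in WT_IR. Spp1, the secreted phosphoprotein osteopontin, was among the most abundant transcripts of the injured kidney, with 1727 and 2485 FPKM in KO_IR, against 11701 and 12151 FPKM in WT_IR. Clu, a secreted chaperone, measured 239.8 and 354 FPKM in KO_IR, against 989.8 and 1211 FPKM in WT_IR, Cp, the copper carrier ceruloplasmin, 9.95 and 10.3 FPKM in KO_IR, against 53.2 and 53.04 FPKM in WT_IR, and Lgals3, a galectin, 29.1 and 26.6 FPKM in KO_IR, against 76.7 and 69.3 FPKM in WT_IR. All of these were lower in both KO_IR libraries. Cd44 differed by -2.44, Krt20 by -2.65, Spp1 by -2.52, Clu by -1.91, Cp by -2.28 and Lgals3 by -1.36. The summed level of the list was 2669 and 3484 FPKM in KO_IR, against 14550 and 15141 FPKM in WT_IR. S100a6, Itgb6, Anxa1, Krt18, Krt7 and Krt19 were not called.

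The list with the largest share of lower genes held chemokines, adhesion molecules and targets of NF-kB, the transcription factor family that cells switch on when danger signals reach them. Of 31 members tested, 28 were called lower and 1 higher, with a median difference of -1.45. Among ligands, Il34, which feeds macrophages through the receptor Csf1r, measured 12.6 and 11.2 FPKM in KO_IR, against 62.4 and 72.3 FPKM in WT_IR, a difference of -2.41 ± 0.12 (SE, limma adjusted p = 0.000184). Cxcl1, which attracts neutrophils, measured 5.76 and 2.56 FPKM in KO_IR, against 30.4 and 25.3 FPKM in WT_IR, and Cxcl16, a membrane-bound chemokine, 21.6 and 21.8 FPKM in KO_IR, against 51.5 and 53.8 FPKM in WT_IR. Both were lower in both KO_IR libraries. Vcam1, an adhesion molecule for leukocytes, measured 5.94 and 6.46 FPKM in KO_IR, against 52.6 and 61.0 FPKM in WT_IR, a difference of -3.00 ± 0.22 (SE, limma adjusted p = 0.000394).

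NF-kB subunits and feedback genes fell with them. Relb, a subunit of the noncanonical pathway, measured 3.68 and 3.50 FPKM in KO_IR, against 14.8 and 14.5 FPKM in WT_IR, and its partner Nfkb2 13.7 and 13.2 FPKM in KO_IR, against 39.98 and 40.6 FPKM in WT_IR, differences of -1.77 and -1.51 ± 0.10 (SE, limma adjusted p = 0.000344). Bcl3 and Nfkbiz, nuclear members of the I-kappa-B family, differed by -2.01 and -1.52. Birc3, an inhibitor of cell death, differed by -1.70 and Socs3, a brake on cytokine signalling, by -2.41. Socs3 measured 6.37 and 5.52 FPKM in KO_IR, against 37.5 and 34.2 FPKM in WT_IR. Every one of these was lower in both KO_IR libraries than in either WT_IR library. The receptor gene Tlr2, which senses bacterial lipoproteins, measured 2.76 and 2.57 FPKM in KO_IR, against 20.6 and 24.2 FPKM in WT_IR. The one higher member was Cxcl12, a chemokine for lymphocytes and progenitor cells, at 16.9 and 24.5 FPKM in KO_IR, against 11.9 and 11.2 FPKM in WT_IR, a difference of 0.77 whose call ended without KO_IR replicate 2, WT_IR replicate 1 or WT_IR replicate 2 (adjusted p up to 0.13). Ccl20 and Il1b were not called. The interaction, which tests whether the genotype difference itself changed with ischemia, was called negative for 25 of the 31, against 6.68% of all genes.

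The promoters of 3 of the fallen genes are printed to show the letters that NF-kB is known to bind, read from the RefSeq promoter table for GRCm38.p6 as the 250 bases before the gene start. They are the 3 members with a match that had the smallest p, picked after their values were seen. Nfkb2 lies at chr19:46304487-46304736 on the plus strand, Nfkbie, an inhibitor of NF-kB, at chr17:45555450-45555699 on the plus strand, and Ccl9, a chemokine for myeloid cells, at chr11:83578637-83578886 on the minus strand. Capitals mark each match to the 10-letter NF-kB consensus on either strand, with overlapping matches taken as 1 site. Nfkb2 held 2 such sites and the others 1 each. Nfkb2 had 3 promoter entries, of which the one with the most matches is printed. In all counts of matches a gene with several entries counts if any of them held a match. 
Nfkb2: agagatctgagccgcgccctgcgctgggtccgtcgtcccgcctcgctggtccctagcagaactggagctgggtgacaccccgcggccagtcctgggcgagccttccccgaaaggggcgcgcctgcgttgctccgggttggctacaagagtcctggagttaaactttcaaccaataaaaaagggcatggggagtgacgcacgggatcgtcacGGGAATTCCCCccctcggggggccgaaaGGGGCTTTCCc
Nfkbie: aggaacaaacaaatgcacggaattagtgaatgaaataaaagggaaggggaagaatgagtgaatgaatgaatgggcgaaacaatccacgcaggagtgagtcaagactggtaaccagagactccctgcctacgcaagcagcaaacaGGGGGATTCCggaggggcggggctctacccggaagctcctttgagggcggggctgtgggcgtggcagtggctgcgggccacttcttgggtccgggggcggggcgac
Ccl9: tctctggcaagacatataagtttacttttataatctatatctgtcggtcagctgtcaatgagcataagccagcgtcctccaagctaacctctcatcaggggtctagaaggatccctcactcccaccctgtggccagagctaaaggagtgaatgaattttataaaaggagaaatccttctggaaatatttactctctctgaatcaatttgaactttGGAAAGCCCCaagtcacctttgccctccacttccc
A match was present in 12 of the 22 tested members that had a promoter entry (54.5%), and in 11 of the 19 that were called lower (57.9%). Of all 27025 genes with an entry 8.23% held one, and of the 10414 genes tested with an entry 10.8%. The list was chosen to hold NF-kB targets, so a share above that of all genes was to be expected from the choice, whatever the comparison showed. A match describes the letters and is not evidence of binding. Nfkbie measured 3.95 and 3.81 FPKM in KO_IR, against 11.5 and 12.9 FPKM in WT_IR and Ccl9 1.82 and 1.85 FPKM in KO_IR, against 5.35 and 5.45 FPKM in WT_IR, lower in both KO_IR libraries.

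Complement and clotting genes were lower in KO_IR in 16 of 21 members tested and higher in 1, with a median difference of -0.93. C3, the central complement protein, measured 62.4 and 65.2 FPKM in KO_IR, against 650 and 579 FPKM in WT_IR, a difference of -3.25 ± 0.25 (SE, limma adjusted p = 0.000434). Its receptor gene C3ar1 differed by -0.93, C2 by -0.55 and the complement proteases C1ra and C1s1 by -1.06 and -0.87. The fibrinogen chains, clot protein better known from liver, moved together. Fgb measured 2.54 and 1.56 FPKM in KO_IR, against 17.2 and 17.4 FPKM in WT_IR, Fgg 31.6 and 13.8 FPKM in KO_IR, against 138 and 169 FPKM in WT_IR and Fga 27.8 and 14.4 FPKM in KO_IR, against 118 and 166 FPKM in WT_IR, and the WT_IR libraries were the high ones in each. The higher member was Cd55, which shields cells from complement, at 2.24 and 2.09 FPKM in KO_IR, against 1.37 and 1.19 FPKM in WT_IR and a difference of 0.47, a call that ended without KO_IR replicate 1, KO_IR replicate 2, WT_IR replicate 1 or WT_IR replicate 2 (adjusted p up to 0.133). The acute-phase inhibitor Serpina3n measured 0.858 and 1.43 FPKM in KO_IR, against 11.6 and 15.5 FPKM in WT_IR.

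Markers of macrophages were lower in KO_IR in 10 of 14 genes tested, with a median difference of -1.17. Their summed level was 263 and 326 FPKM in KO_IR, against 639 and 628 FPKM in WT_IR, and 83.3 and 123 FPKM in KO, against 68.1 and 73.9 FPKM in WT. Cd68, a lysosomal protein of macrophages, measured 9.15 and 7.24 FPKM in KO_IR, against 22.4 and 21.7 FPKM in WT_IR, a difference of -1.33 ± 0.15 (SE, limma adjusted p = 0.00118). C1qb, a complement subunit made by macrophages, measured 49.7 and 58.5 FPKM in KO_IR, against 132 and 136 FPKM in WT_IR and Cx3cr1, a chemokine receptor, 3.84 and 4.08 FPKM in KO_IR, against 10.49 and 12.3 FPKM in WT_IR. The KO_IR libraries were lower than both WT_IR libraries for each. Ccr2, the receptor of incoming monocytes, differed by -1.31 and Mrc1, the mannose receptor, by -1.25. Cd14, a coreceptor for endotoxin, differed by -2.22. Csf1r, Lyz2 and Ms4a7 were among those not called. The part of macrophage number in the fall of the chemokine, complement and cell death genes was not tested.

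Markers of other immune cells were called in part. Neutrophil markers were called lower in 3 of 5 genes tested, and in all 5 on the TPM scale, with Csf3r, the receptor of the growth factor G-CSF, at 1.29 and 1.33 FPKM in KO_IR, against 3.71 and 3.10 FPKM in WT_IR. Mmp9 measured 0.2001 and 0.634 FPKM in KO_IR, against 2.27 and 1.56 FPKM in WT_IR and S100a8 0.595 and 0.831 FPKM in KO_IR, against 4.15 and 2.69 FPKM in WT_IR, and their calls ended without WT_IR replicate 1 (adjusted p up to 0.0522) and without KO_IR replicate 1 or WT_IR replicate 1 (adjusted p up to 0.0592). T and NK cell markers were called lower in 4 of 9, with low levels such as 1.13 and 1.58 FPKM in KO_IR, against 2.95 and 4.55 FPKM in WT_IR for Lck, the T cell kinase, whose call ended without KO_IR replicate 1 or WT_IR replicate 2 (adjusted p up to 0.0929). The count for T and NK cells was 0 without KO_IR replicate 1 or WT_IR replicate 2, and it was 7 on the TPM scale. B and plasma cell markers (3 tested) and red cell genes (6 tested) were not called.

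Antigen presentation genes were called lower in 10 of 18 members tested, with a median difference of -0.69. The count was 3 without KO_IR replicate 1, WT_IR replicate 1 or WT_IR replicate 2, and 6 without WT replicate 1 or WT replicate 2, and all 18 were called lower on the TPM scale. Those 3 with calls in every fit were Tap2, a peptide transporter into the ER, at 8.94 and 9.44 FPKM in KO_IR, against 16.0 and 17.2 FPKM in WT_IR, Psmb10, a subunit of the immunoproteasome, at 15.7 and 18.2 FPKM in KO_IR, against 34.6 and 33.7 FPKM in WT_IR, and Tapbp, which loads peptides, at 48.0 and 51.6 FPKM in KO_IR, against 76.4 and 82.2 FPKM in WT_IR. Both KO_IR libraries were lower in each, by -0.79, -0.97 and -0.66. The class II genes Cd74, H2-Ab1, H2-Aa and H2-Eb1 were not called. Tap2 and Tapbp lie within 1 Mb of Ehmt2.

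Interferon-stimulated genes were mostly not called after ischemia, while some were called higher in KO without it. After ischemia 6 of 32 members were called lower in KO_IR and the other 26 were not called, with a median difference of -0.15. That share of 18.75% was near the 13.5% of all genes. On the TPM scale 17 were called lower, with a median of -0.50. Parp14 measured 4.89 and 5.47 FPKM in KO_IR, against 11.5 and 10.3 FPKM in WT_IR, Irf1, a transcription factor of the interferon gamma response, 8.33 and 8.19 FPKM in KO_IR, against 16.8 and 18.4 FPKM in WT_IR, and Gbp3, an interferon-induced GTPase, 12.4 and 13.7 FPKM in KO_IR, against 26.0 and 25.2 FPKM in WT_IR. In KO_IR both libraries were lower in all 3. Gbp2 differed by -1.66, a call that ended without KO_IR replicate 1 or WT_IR replicate 2 (adjusted p up to 0.085), and Ifi35 by -0.39, a call that ended without KO_IR replicate 2, WT_IR replicate 1 or WT_IR replicate 2 (adjusted p up to 0.0893). Ddx58, whose product RIG-I senses viral RNA, differed by -0.58.

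Without ischemia 6 members were called higher in KO, beside 0.16% of all genes. With quantile normalization or from the KO and WT libraries alone, KO against WT had 0 calls, so these 6 depend on the fit. Zbp1, a sensor of nucleic acids, measured 1.67 and 1.64 FPKM in KO, against 0.437 and 0.403 FPKM in WT, a difference of 0.90 ± 0.097 (SE, limma adjusted p = 0.0444). After ischemia it measured 3.85 and 3.61 FPKM in KO_IR, against 4.02 and 4.34 FPKM in WT_IR, a difference of -0.13 ± 0.097 (SE, limma adjusted p = 0.355). Irf7, the transcription factor that amplifies the type I interferon response, measured 19.8 and 16.6 FPKM in KO, against 8.24 and 7.80 FPKM in WT, a difference of 1.08 ± 0.12 (SE, limma adjusted p = 0.0444). After ischemia it measured 36.3 and 31.0 FPKM in KO_IR, against 28.2 and 30.3 FPKM in WT_IR, a difference of 0.19 ± 0.12 (SE, limma adjusted p = 0.255) that was -0.16 on the TPM scale. Oasl2, Rtp4, Oas2 and Oas1a, interferon-induced antiviral genes, were likewise called higher in KO and differed after ischemia by -0.23, -0.23, -0.29 and -0.11, with no call. The interaction was called negative for 18 of the 32 members. Ifit3b, an interferon-induced gene outside the list, was called higher in both comparisons, at 12.4 and 11.6 FPKM in KO_IR, against 7.46 and 5.98 FPKM in WT_IR, and 8.19 and 8.01 FPKM in KO, against 2.99 and 2.65 FPKM in WT.

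**Figure D3:**
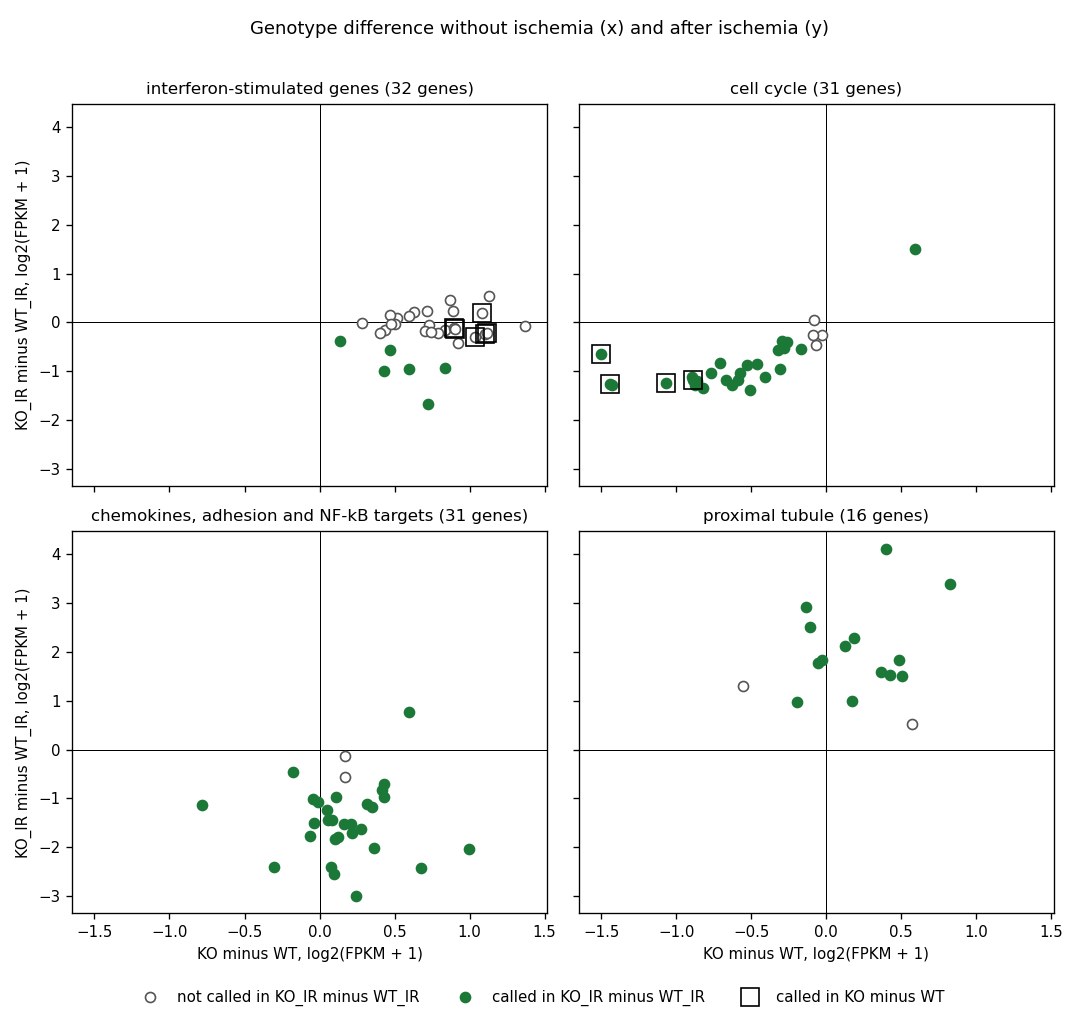
Genotype difference after ischemia (KO_IR minus WT_IR, vertical) against that without ischemia (KO minus WT, horizontal), both in log2(FPKM + 1), for the members of 4 lists. Green points were called after ischemia and squares mark calls without ischemia. The interferon genes lie right of 0 and mostly near 0 on the vertical axis, the cell cycle genes left of 0 with 1 exception and below 0 with 2, and the NF-kB targets below 0 with 1 exception.

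Matrix genes were lower in KO_IR. Of 32 genes of extracellular matrix and fibrosis tested, 23 were called lower, with a median difference of -1.02, and their summed level was 619 and 583 FPKM in KO_IR, against 1323 and 1238 FPKM in WT_IR. Timp1, an inhibitor of matrix proteases, measured 5.38 and 6.21 FPKM in KO_IR, against 25.8 and 30.5 FPKM in WT_IR, a difference of -2.10 ± 0.21 (SE, limma adjusted p = 0.000866). Col1a1, the main chain of fibrillar collagen, measured 36.0 and 32.7 FPKM in KO_IR, against 97.6 and 82.0 FPKM in WT_IR and Col3a1 25.0 and 28.1 FPKM in KO_IR, against 87.0 and 78.3 FPKM in WT_IR. Basement membrane collagens Col4a1 and Col4a2 differed by -1.15 and -1.03. Fbn1, the fibrillin of elastic fibres, differed by -1.27 and Tgfb1, a growth factor that drives matrix production, by -1.03. Both KO_IR libraries were lower than both WT_IR libraries in each case. Mmp2, Tnc, Acta2, Tgfb2, Postn, Tagln, Thbs1 and Col5a2 were among those not called. Markers of fibroblasts and pericytes were called lower in 4 of 9, with Des at 4.45 and 4.51 FPKM in KO_IR, against 8.90 and 7.83 FPKM in WT_IR and Cspg4 at 3.75 and 3.51 FPKM in KO_IR, against 6.95 and 8.58 FPKM in WT_IR. In whole kidney the part of fibroblast number in the fall of the collagens was not tested.

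Genes of cell division were lower in KO_IR, and 4 of them were also called lower in KO. Of 31 cell cycle genes tested, 26 were called lower in KO_IR and 1 higher, with a median difference of -1.04. Mki67, a marker of cycling cells, measured 2.22 and 2.01 FPKM in KO_IR, against 6.55 and 5.65 FPKM in WT_IR, a difference of -1.19 ± 0.11 (SE, limma adjusted p = 0.000721). Without ischemia it measured 0.395 and 0.533 FPKM in KO, against 1.77 and 1.66 FPKM in WT, a difference of -0.89 ± 0.11 (SE, limma adjusted p = 0.0486). Top2a, which untangles DNA, measured 2.06 and 1.78 FPKM in KO_IR, against 5.55 and 5.83 FPKM in WT_IR, and Bub1b, a kinase of the mitotic checkpoint, 1.21 and 1.17 FPKM in KO_IR, against 3.73 and 4.18 FPKM in WT_IR. Ube2c, which directs cyclins to breakdown, measured 2.86 and 2.42 FPKM in KO_IR, against 7.28 and 8.04 FPKM in WT_IR, and Ccnb2, a mitotic cyclin, 6.32 and 4.31 FPKM in KO_IR, against 13.7 and 14.4 FPKM in WT_IR. All 4 were lower in both KO_IR libraries. Aurkb, Plk1 and Foxm1, 2 mitotic kinases and a transcription factor of mitosis, differed by -1.39, -1.28 and -1.05.

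The interaction was called for 1 cell cycle gene lower and 1 higher. Without ischemia 4 were called lower in KO, beside 0.0577% of all genes. They were Mki67, Ube2c, Ccnb2 and Rrm2, the last a subunit of ribonucleotide reductase. These calls depend on the fit, as KO against WT had 0 with quantile normalization or from those 2 groups alone. Rrm2 measured 5.32 and 4.51 FPKM in KO_IR, against 8.43 and 8.03 FPKM in WT_IR, and 1.29 and 2.12 FPKM in KO, against 6.97 and 6.19 FPKM in WT. Its difference after ischemia was -0.64 ± 0.16 (SE, limma adjusted p = 0.0212) and without ischemia -1.504 ± 0.16 (SE, limma adjusted p = 0.0444). The call after ischemia ended without KO_IR replicate 2, WT_IR replicate 1 or WT_IR replicate 2 (adjusted p up to 0.1). The gene higher in KO_IR was Ccnd1, the cyclin of early G1 phase, at 37.4 and 26.2 FPKM in KO_IR, against 14.3 and 7.49 FPKM in WT_IR, a difference of 1.503 whose call ended without KO_IR replicate 1 or WT_IR replicate 2 (adjusted p up to 0.104). Ccne1, Ccne2, Mcm2 and Tyms were not called.

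The promoters of Mki67, Bub1b and Top2a are shown because many promoters of mitotic genes are known to carry the letters CCAAT, the site of the factor NF-Y. They were picked, after their values were seen, as the 3 called members with a match and the smallest p. In GRCm38.p6 the 250 bases before the start lie at chr7:135716380-135716629 on the minus strand for Mki67, chr2:118597961-118598210 on the plus strand for Bub1b and chr11:99024190-99024439 on the minus strand for Top2a. Capitals mark CCAAT or its reverse complement ATTGG. Mki67 held 3, Bub1b 1 and Top2a 6.
Mki67: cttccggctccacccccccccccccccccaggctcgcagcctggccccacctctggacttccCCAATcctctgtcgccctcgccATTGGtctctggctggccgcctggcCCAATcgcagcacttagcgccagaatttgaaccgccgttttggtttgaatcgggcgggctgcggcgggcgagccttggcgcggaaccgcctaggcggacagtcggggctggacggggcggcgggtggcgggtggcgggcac
Bub1b: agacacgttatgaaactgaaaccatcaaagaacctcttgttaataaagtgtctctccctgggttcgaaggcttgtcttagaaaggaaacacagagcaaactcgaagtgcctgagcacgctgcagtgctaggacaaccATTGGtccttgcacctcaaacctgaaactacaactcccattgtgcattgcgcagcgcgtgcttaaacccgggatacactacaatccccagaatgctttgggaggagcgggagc
Top2a: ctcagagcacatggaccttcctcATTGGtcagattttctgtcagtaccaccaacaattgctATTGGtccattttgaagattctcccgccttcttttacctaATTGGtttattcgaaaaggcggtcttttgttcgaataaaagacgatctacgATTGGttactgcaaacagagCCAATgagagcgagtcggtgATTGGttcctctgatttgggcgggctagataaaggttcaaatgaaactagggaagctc
The letters occurred in 18 of the 24 tested cell cycle genes with a promoter entry and in 17 of the 21 called lower, against 37.5% of all 27025 genes and 39.7% of the genes tested with an entry. As mitotic genes are known to carry these letters, a high share was to be expected from the choice of list. The match is a description of the letters in this window.

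Genes of p53 and of arrest moved in part. Of 19 tested, 7 were called lower and 2 higher, with a median difference of -0.40, against 13 lower and 0 higher on the TPM scale. The lower count was 3 without KO_IR replicate 2 or WT_IR replicate 2, and 4 without WT_IR replicate 1. Trp53, the gene of p53 itself, measured 10.3 and 10.3 FPKM in KO_IR, against 17.4 and 16.5 FPKM in WT_IR, a difference of -0.66 ± 0.073 (SE, limma adjusted p = 0.00118). Bbc3, which encodes the death protein Puma, measured 3.19 and 3.29 FPKM in KO_IR, against 10.2 and 12.9 FPKM in WT_IR, a difference of -1.56 ± 0.23 (SE, limma adjusted p = 0.00302). Cdkn1a, the cell cycle inhibitor p21, measured 7.75 and 7.18 FPKM in KO_IR, against 23.0 and 42.7 FPKM in WT_IR, with the WT_IR libraries far apart. Its difference was -1.94 and its call ended without KO_IR replicate 1, KO_IR replicate 2 or WT_IR replicate 2 (adjusted p up to 0.0725). The higher members were Ei24, an ER protein induced by p53, at 0.40, and Ccng1, a cyclin induced by p53, at 0.51, and these calls ended without WT_IR replicate 1 (adjusted p up to 0.0525) and without KO_IR replicate 2, WT_IR replicate 1, WT_IR replicate 2, WT replicate 1 or WT replicate 2 (adjusted p up to 0.143).

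Cell death genes were called lower in 8 of 19 tested, and 15 on the TPM scale. The count was 3 without KO_IR replicate 1, 4 without WT_IR replicate 1, and 5 without WT_IR replicate 2. Tnfrsf1a, the main receptor of TNF, measured 33.4 and 34.5 FPKM in KO_IR, against 62.5 and 58.7 FPKM in WT_IR and Gsdmd, which forms pores in pyroptosis, 5.24 and 5.85 FPKM in KO_IR, against 9.99 and 10.9 FPKM in WT_IR. Mlkl and Ripk3, the executioner and kinase of necroptosis, measured 2.28 and 1.53 FPKM in KO_IR, against 4.71 and 4.25 FPKM in WT_IR, and 1.13 and 1.65 FPKM in KO_IR, against 3.995 and 3.56 FPKM in WT_IR. The KO_IR libraries were lower in all 4, though the call of Mlkl ended without WT_IR replicate 1 (adjusted p up to 0.0512) and that of Ripk3 without KO_IR replicate 1 or WT_IR replicate 1 (adjusted p up to 0.057). Casp8, Ripk1 and Fadd were among those not called.

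Genes of the proximal tubule were higher in KO_IR. Of 16 marker genes tested, 14 were called higher, with a median difference of 1.80. Their summed level was 6491 and 5578 FPKM in KO_IR, against 2040.2 and 1705 FPKM in WT_IR, and 6939.9 and 6480.2 FPKM in KO, against 6834 and 6271 FPKM in WT. Slc34a1, the phosphate transporter of the proximal tubule, measured 1256 and 1247 FPKM in KO_IR, against 348 and 233 FPKM in WT_IR, a difference of 2.13 ± 0.21 (SE, limma adjusted p = 0.000784). Slc5a2, which encodes the glucose transporter SGLT2, measured 189.7 and 165 FPKM in KO_IR, against 55.2 and 47.5 FPKM in WT_IR, a difference of 1.77 ± 0.12 (SE, limma adjusted p = 0.00036). Slc6a19, a carrier of neutral amino acids, measured 100 and 68.2 FPKM in KO_IR, against 19.05 and 13.9 FPKM in WT_IR and Miox, which breaks down inositol, 936 and 1079.6 FPKM in KO_IR, against 203 and 154 FPKM in WT_IR. Both KO_IR libraries were higher in each. The 2 members with no call were Cyp2e1 at 808 and 364 FPKM in KO_IR, against 248 and 194 FPKM in WT_IR and Gsta2 at 201 and 137 FPKM in KO_IR, against 98.8 and 135 FPKM in WT_IR.

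Transporters of organic ions, sugars and amino acids were higher in 32 of 40 tested and lower in 2, with a median difference of 1.04. Slc22a8, the organic anion transporter of the basal membrane, measured 134 and 113 FPKM in KO_IR, against 7.57 and 4.98 FPKM in WT_IR, a difference of 4.11 ± 0.18 (SE, limma adjusted p = 0.000152). Slc7a13, an amino acid transporter, measured 181 and 106 FPKM in KO_IR, against 11.2 and 13.5 FPKM in WT_IR and Slc34a3, a second phosphate carrier, 30.6 and 30.3 FPKM in KO_IR, against 5.75 and 3.78 FPKM in WT_IR. Slc22a30, Slc16a9, Slc22a2 and Slc17a3 differed by 2.20, 1.31, 1.08 and 1.41. The lower members were Abcc3, an export pump, at -0.70, and Slc13a1, a sulfate carrier, at -0.68, and these calls ended without KO_IR replicate 2 or WT_IR replicate 1 (adjusted p up to 0.078) and without KO_IR replicate 2, WT_IR replicate 1, WT_IR replicate 2, KO replicate 1, KO replicate 2, WT replicate 1 or WT replicate 2 (adjusted p up to 0.203).

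Endocytosis and brush border genes were higher in 18 of 23 tested, with a median difference of 0.79. Lrp2, which encodes the scavenger receptor megalin, measured 114 and 111 FPKM in KO_IR, against 48.4 and 27.6 FPKM in WT_IR, and its partner Cubn 30.5 and 27.6 FPKM in KO_IR, against 11.5 and 7.49 FPKM in WT_IR, differences of 1.59 ± 0.23 (SE, limma adjusted p = 0.00296) and 1.54. Lrpap1, their chaperone, differed by 1.05, the peptidase Anpep by 1.24 and Pdzk1, a scaffold of the brush border, by 1.40. Dpp4, Cdhr5, Ocrl and Ctns were among those not called.

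Farther along the nephron, several segments showed the same direction. Egf, the growth factor precursor of the thick ascending limb and distal convoluted tubule, had the largest rise of the protein-coding genes described above. It measured 169.6 and 188 FPKM in KO_IR, against 8.72 and 5.60 FPKM in WT_IR, a difference of 4.49 ± 0.18 (SE, limma adjusted p = 0.000152), and 228 and 262 FPKM in KO, against 172 and 173 FPKM in WT. The WT_IR libraries were the ones that stood apart. In the thick ascending limb 4 of 7 markers were called higher, with Slc12a1, the salt carrier blocked by loop diuretics, at 195 and 255 FPKM in KO_IR, against 74.6 and 75.0 FPKM in WT_IR and the potassium channel gene Kcnj1 at 64.5 and 81.8 FPKM in KO_IR, against 27.3 and 30.5 FPKM in WT_IR. Umod, which encodes uromodulin, measured 1243 and 1655 FPKM in KO_IR, against 887 and 1059 FPKM in WT_IR, with no call (limma adjusted p = 0.0818).

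In the distal convoluted tubule 4 of 7 markers were called higher and 1 lower. Calb1, the calcium buffer calbindin, measured 45.1 and 70.4 FPKM in KO_IR, against 6.40 and 5.95 FPKM in WT_IR, a difference of 2.999 ± 0.21 (SE, limma adjusted p = 0.00036). Pvalb, another calcium-binding protein, measured 6.35 and 8.43 FPKM in KO_IR, against 0 and 0.0946 FPKM in WT_IR, so that it was listed at 0 in 1 WT_IR library. Slc12a3, the salt carrier blocked by thiazides, measured 138 and 200 FPKM in KO_IR, against 55.2 and 52.7 FPKM in WT_IR. Both KO_IR libraries were higher in all 3. The lower member was Trpv5, a calcium channel, at 9.72 and 10.4 FPKM in KO_IR, against 26.8 and 14.2 FPKM in WT_IR, whose call ended without KO_IR replicate 1, KO_IR replicate 2, WT_IR replicate 1, KO replicate 1, KO replicate 2, WT replicate 1 or WT replicate 2 (adjusted p up to 0.128). Klk1, a kallikrein protease of the connecting tubule, measured 1839.8 and 1693 FPKM in KO_IR, against 162 and 176 FPKM in WT_IR, a difference of 3.38 ± 0.12 (SE, limma adjusted p = 0.000152), and S100g, a calcium-binding protein, 1091 and 1080.4 FPKM in KO_IR, against 119 and 79.4 FPKM in WT_IR.

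Intercalated cell markers were higher in 5 of 8 tested. Slc4a1, the anion exchanger of acid-secreting cells, measured 10.4 and 16.7 FPKM in KO_IR, against 1.28 and 1.16 FPKM in WT_IR and Slc26a4, the exchanger pendrin of base-secreting cells, 24.0 and 22.8 FPKM in KO_IR, against 6.67 and 6.13 FPKM in WT_IR. Principal cell markers were called in 1 of 7, a share of 14.3% beside 30.0% of all genes. The one called was the water channel Aqp3 at 76.7 and 74.3 FPKM in KO_IR, against 29.3 and 36.8 FPKM in WT_IR. Aqp2 measured 298 and 336 FPKM in KO_IR, against 222 and 197 FPKM in WT_IR, with no call. Podocyte markers were higher in 3 of 8. Podxl, a surface sialoprotein of podocytes, measured 47.2 and 51.2 FPKM in KO_IR, against 33.8 and 32.7 FPKM in WT_IR. On the TPM scale 0 podocyte markers were called higher and 1 lower. Endothelial markers were called higher in 2 of 11 and lower in 1, together 27.3% beside 30.0% of all genes. On the TPM scale these counts were 0 and 6. Kdr, a receptor of VEGF, measured 7.19 and 7.71 FPKM in KO_IR, against 4.90 and 4.998 FPKM in WT_IR. The median difference of the endothelial markers was 0.0054, and -0.35 on the TPM scale. The higher count was 1 without KO_IR replicate 1, KO_IR replicate 2, WT_IR replicate 1, WT_IR replicate 2, KO replicate 1 or KO replicate 2. Markers of liver cells, some of which kidney tubules also make, were higher in 5 of 6, and in 3 on the TPM scale. The count was 2 without KO_IR replicate 1 or WT_IR replicate 1, and 3 without WT_IR replicate 2. The calls of Ttr, at 112 and 95.9 FPKM in KO_IR, against 8.72 and 10.9 FPKM in WT_IR, and Alb, at 1.59 and 1.45 FPKM in KO_IR, against 0.121 and 0.0420 FPKM in WT_IR, stood in every such fit.

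Protective factors of the kidney were called higher in 6 of 10 tested. Kl, which encodes the anti-ageing protein klotho of the distal tubule, measured 69.6 and 74.8 FPKM in KO_IR, against 26.2 and 16.5 FPKM in WT_IR, a difference of 1.75 ± 0.19 (SE, limma adjusted p = 0.00105). Bmp7, a factor that opposes fibrosis, measured 15.9 and 16.3 FPKM in KO_IR, against 7.00 and 5.67 FPKM in WT_IR, a difference of 1.23 ± 0.15 (SE, limma adjusted p = 0.00176). In KO_IR both libraries were higher in both, and Kl without ischemia measured 85.2 and 87.7 FPKM in KO, against 79.4 and 75.3 FPKM in WT. Umod, Igf1, Sirt1 and Erbb4 were not called.

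**Figure D4:**
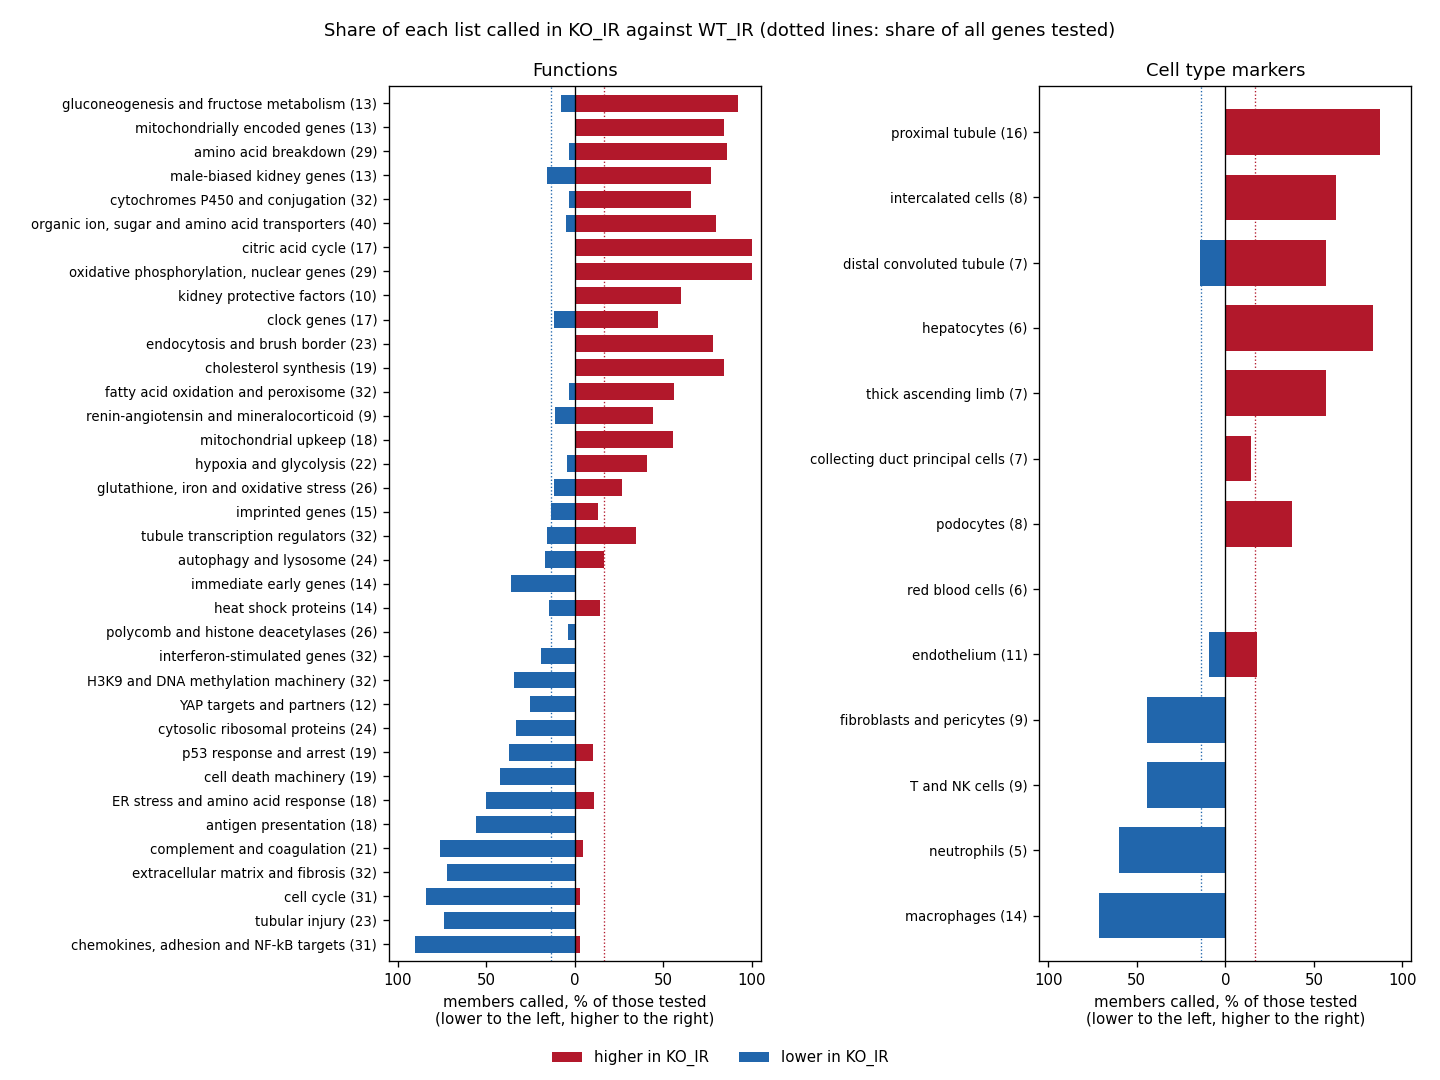
Share of the tested members of each list called higher (red, to the right) or lower (blue, to the left) in KO_IR than in WT_IR, in percent, with the number tested in brackets and lists in order of their median difference. Dotted lines mark the shares over all genes tested, 16.6% higher and 13.5% lower. Oxidative phosphorylation and the citric acid cycle lie wholly on the higher side, and the chemokine and NF-kB list almost wholly on the lower.

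Genes of metabolic pathways of the proximal tubule were higher in KO_IR. Of 13 genes of gluconeogenesis and fructose metabolism tested, 12 were called higher and 1 lower, with a median difference of 1.33. Pck1, the enzyme that commits carbon to glucose, measured 1357 and 998 FPKM in KO_IR, against 221 and 319 FPKM in WT_IR, and G6pc, which releases free glucose, 151 and 160.5 FPKM in KO_IR, against 14.9 and 29.9 FPKM in WT_IR. Fbp1, which removes phosphate from fructose bisphosphate, measured 792 and 651 FPKM in KO_IR, against 202 and 157 FPKM in WT_IR, a difference of 2.01 ± 0.16 (SE, limma adjusted p = 0.000434). Slc2a5 and Khk, the fructose carrier and kinase, differed by 1.44 and 1.47. The lower member was Pck2, the mitochondrial form of the enzyme, at 4.93 and 4.39 FPKM in KO_IR, against 8.13 and 8.74 FPKM in WT_IR, a difference of -0.74 ± 0.12 (SE, limma adjusted p = 0.00433).

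Mitochondrial energy genes moved as blocks. All 29 nuclear genes of oxidative phosphorylation tested were called higher, with a median difference of 0.92, a count of 26 on the TPM scale. All 17 genes of the citric acid cycle were called higher, with a median of 0.92, a count of 16 on the TPM scale. Sdha, a subunit shared by both pathways, measured 213 and 192 FPKM in KO_IR, against 89.9 and 85.2 FPKM in WT_IR, a difference of 1.20 ± 0.094 (SE, limma adjusted p = 0.000434). Ndufs1, of respiratory complex I, measured 31.7 and 29.1 FPKM in KO_IR, against 13.1 and 10.999 FPKM in WT_IR, Idh2, a dehydrogenase of the cycle, 241 and 202 FPKM in KO_IR, against 80.7 and 75.3 FPKM in WT_IR, and Suclg2, a synthetase of the cycle, 93.0 and 80.6 FPKM in KO_IR, against 36.4 and 35.2 FPKM in WT_IR. In each the 2 KO_IR libraries were above the 2 WT_IR libraries.

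Genes encoded in mitochondrial DNA were higher in 11 of 13 tested, a count of 4 without WT_IR replicate 2, and 7 without WT_IR replicate 1. mt-Nd2 measured 6506 and 5739.9 FPKM in KO_IR, against 2401 and 2403 FPKM in WT_IR, a difference of 1.35 ± 0.19 (SE, limma adjusted p = 0.00252), and mt-Nd4 4871 and 4096 FPKM in KO_IR, against 1997 and 2025 FPKM in WT_IR. mt-Co2 and mt-Nd4l were not called. Genes of mitochondrial upkeep were higher in 10 of 18, against 7 higher and 3 lower on the TPM scale. Sod2, which removes superoxide, measured 80.6 and 71.6 FPKM in KO_IR, against 33.0 and 31.2 FPKM in WT_IR and Sirt3, the mitochondrial deacetylase, 12.3 and 11.99 FPKM in KO_IR, against 5.60 and 5.27 FPKM in WT_IR, differences of 1.22 and 1.03.

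Fatty acid oxidation and peroxisome genes were called higher in 18 of 32 tested and lower in 1, with a median difference of 0.61. Acadm and Hadh, enzymes of the oxidation spiral, measured 192 and 148 FPKM in KO_IR, against 71.4 and 76.1 FPKM in WT_IR, and 104.6 and 83.2 FPKM in KO_IR, against 41.4 and 39.9 FPKM in WT_IR. Cat, the peroxisomal catalase, measured 352 and 273 FPKM in KO_IR, against 136 and 135 FPKM in WT_IR. The KO_IR libraries were higher in all 3. Cpt1a, Cpt2, Ehhadh and Acsl1 were among the 13 with no call. The lower member was Pdk4, a brake on pyruvate oxidation, at 6.77 and 2.96 FPKM in KO_IR, against 15.8 and 23.0 FPKM in WT_IR, whose call ended without KO_IR replicate 1, KO_IR replicate 2, WT_IR replicate 1, WT_IR replicate 2, KO replicate 1 or KO replicate 2 (adjusted p up to 0.199).

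Amino acid breakdown genes were higher in 25 of 29 tested and lower in 1, with a median difference of 1.20. Gatm, which starts creatine synthesis, measured 8.04 and 7.64 FPKM in KO_IR, against 1.79 and 1.66 FPKM in WT_IR, a difference of 1.70 ± 0.095 (SE, limma adjusted p = 0.000256). Gldc, which cleaves glycine, measured 90.3 and 69.4 FPKM in KO_IR, against 17.9 and 9.62 FPKM in WT_IR. Hpd, of tyrosine breakdown, measured 149 and 72.8 FPKM in KO_IR, against 4.09 and 10.99 FPKM in WT_IR. The lower member was Arg2, the mitochondrial arginase, at 9.34 and 6.78 FPKM in KO_IR, against 16.4 and 22.9 FPKM in WT_IR, whose call ended without WT_IR replicate 2 (adjusted p up to 0.0554). Sat1 and Ddc were among those not called.

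Cytochromes P450 and conjugating enzymes were higher in 21 of 32 tested and lower in 1, with a median difference of 1.16. Inmt, an amine N-methyltransferase, measured 348 and 255 FPKM in KO_IR, against 19.4 and 11.2 FPKM in WT_IR, a difference of 4.24 ± 0.28 (SE, limma adjusted p = 0.00034). The carboxylesterases Ces1d and Ces1f measured 123 and 132 FPKM in KO_IR, against 16.1 and 9.60 FPKM in WT_IR, and 141 and 100.5 FPKM in KO_IR, against 21.3 and 16.4 FPKM in WT_IR. Akr1c21, a steroid dehydrogenase, differed by 2.19. The lower member was Cyp1b1 at -1.22, whose call ended without KO_IR replicate 2, WT_IR replicate 1 or WT_IR replicate 2 (adjusted p up to 0.0721).

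Genes of cholesterol synthesis were called higher in 16 of 19 tested, with a median difference of 0.71. The count was 9 without WT_IR replicate 2, and 10 without KO_IR replicate 2, and it was 10 on the TPM scale. Cyp51, which removes a methyl group from lanosterol, measured 58.0 and 59.3 FPKM in KO_IR, against 15.4 and 11.7 FPKM in WT_IR, a difference of 2.05 ± 0.15 (SE, limma adjusted p = 0.000396). Idi1 and Hmgcs1, enzymes of the mevalonate pathway, measured 7.02 and 6.55 FPKM in KO_IR, against 2.31 and 2.25 FPKM in WT_IR, and 97.5 and 99.7 FPKM in KO_IR, against 42.4 and 33.6 FPKM in WT_IR. Insig1, a sterol sensor, differed by 1.82. Without ischemia Cyp51 measured 81.4 and 103 FPKM in KO, against 55.4 and 53.1 FPKM in WT, so that the KO_IR libraries lay below KO. Sqle was among those not called.

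Promoters of cholesterol genes are known to pair the site of the sterol-sensing factor with a CCAAT box, and the same letters were therefore marked in the 3 called members with the smallest p. In GRCm38.p6 the 250 bases before the start lie at chr5:4104698-4104947 on the minus strand for Cyp51, chr13:8885356-8885605 on the plus strand for Idi1 and chr13:119690101-119690350 on the plus strand for Hmgcs1. Cyp51 held 1 CCAAT or ATTGG, Idi1 2 and Hmgcs1 3, in capitals.
Cyp51: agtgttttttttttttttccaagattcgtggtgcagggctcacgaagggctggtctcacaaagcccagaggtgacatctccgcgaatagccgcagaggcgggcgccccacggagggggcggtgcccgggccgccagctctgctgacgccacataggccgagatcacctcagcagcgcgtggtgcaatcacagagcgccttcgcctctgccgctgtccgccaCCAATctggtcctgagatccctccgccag
Idi1: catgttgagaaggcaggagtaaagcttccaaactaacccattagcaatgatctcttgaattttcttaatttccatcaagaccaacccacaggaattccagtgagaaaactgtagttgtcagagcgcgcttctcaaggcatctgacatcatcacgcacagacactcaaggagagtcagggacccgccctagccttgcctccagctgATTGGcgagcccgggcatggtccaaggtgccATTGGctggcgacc
Hmgcs1: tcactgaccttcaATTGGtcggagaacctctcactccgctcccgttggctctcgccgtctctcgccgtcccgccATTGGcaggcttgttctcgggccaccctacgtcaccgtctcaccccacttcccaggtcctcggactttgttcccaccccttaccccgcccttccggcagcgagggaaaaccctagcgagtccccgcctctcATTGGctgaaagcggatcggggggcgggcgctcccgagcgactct
All 13 tested members with a promoter entry held the letters, beside 39.7% of the genes tested with an entry. A high share was again to be expected from the choice of list. They also stand in most of the cell cycle promoters, whose genes were lower in KO_IR.

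Hypoxia and glycolysis genes were called higher in 9 of 22 tested and lower in 1, against 4 higher and 4 lower on the TPM scale. Vegfa, the growth factor of blood vessels, measured 81.7 and 69.8 FPKM in KO_IR, against 37.0 and 36.6 FPKM in WT_IR, a difference of 1.02 ± 0.11 (SE, limma adjusted p = 0.000949). Pfkm, the muscle-type phosphofructokinase, measured 21.9 and 21.8 FPKM in KO_IR, against 10.4 and 11.99 FPKM in WT_IR and Pgk1, a kinase of glycolysis, 214 and 213 FPKM in KO_IR, against 128 and 124 FPKM in WT_IR. Hk2, the inducible hexokinase, went the other way at 0.563 and 0.558 FPKM in KO_IR, against 2.48 and 1.95 FPKM in WT_IR, a difference of -1.04 ± 0.14 (SE, limma adjusted p = 0.00223). Slc2a1, Ldha, Pkm and Hif1a were not called.

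Among tubule transcription regulators, 11 of 32 tested were called higher and 5 lower, against 5 higher and 9 lower on the TPM scale. The shares over all genes were 16.6% higher and 13.5% lower, and on the TPM scale 9.18% and 37.9%. The higher count was 6 without WT_IR replicate 2, and the lower one 3 without WT_IR replicate 1. Hnf4a, which maintains proximal tubule identity, measured 183 and 178 FPKM in KO_IR, against 99.2 and 86.9 FPKM in WT_IR, a difference of 0.95 ± 0.10 (SE, limma adjusted p = 0.000981). Emx1 and Esrrb, tubule regulators, differed by 1.15 and 1.15. Klf15, a glucocorticoid-induced factor that the circadian clock also drives, measured 45.8 and 30.0 FPKM in KO_IR, against 10.8 and 5.15 FPKM in WT_IR, a difference of 2.16 ± 0.32 (SE, limma adjusted p = 0.00319). The lower members included factors linked to injury and repair. Sox4 measured 4.68 and 4.82 FPKM in KO_IR, against 14.5 and 14.96 FPKM in WT_IR, a difference of -1.45 ± 0.14 (SE, limma adjusted p = 0.00069), Elf3 15.6 and 14.4 FPKM in KO_IR, against 34.0 and 33.5 FPKM in WT_IR and Runx1 0.384 and 0.553 FPKM in KO_IR, against 1.70 and 1.81 FPKM in WT_IR. Pax8 and Klf6 differed by -0.40 and -1.38, with calls that ended without KO_IR replicate 1, KO_IR replicate 2 or WT_IR replicate 1 (adjusted p up to 0.172) and without WT_IR replicate 1, WT_IR replicate 2, KO replicate 1, KO replicate 2, WT replicate 1 or WT replicate 2 (adjusted p up to 0.158).

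Genes of the H3K9 and DNA methylation machinery were called lower in 11 of 32 tested, with a median difference of -0.17. This was a share of 34.4%, beside 13.5% of all genes, or 37.9% of them on the TPM scale. The count was 3 without WT_IR replicate 1, 4 without KO_IR replicate 1 or WT_IR replicate 2, and 6 without KO_IR replicate 2, and it was 20 on the TPM scale. The demethylase gene Kdm4a measured 13.7 and 13.4 FPKM in KO_IR, against 22.7 and 28.1 FPKM in WT_IR, a difference of -0.85 ± 0.12 (SE, limma adjusted p = 0.00264), and Kdm1a 6.88 and 7.35 FPKM in KO_IR, against 10.9 and 10.98 FPKM in WT_IR, a difference of -0.56. Uhrf1, which guides DNA methylation after replication and is high in cycling cells, measured 1.94 and 2.06 FPKM in KO_IR, against 6.12 and 5.37 FPKM in WT_IR, a difference of -1.17. All 3 were lower in both KO_IR libraries. The methyltransferase gene Suv39h1 measured 1.87 and 1.90 FPKM in KO_IR, against 2.97 and 3.49 FPKM in WT_IR and Setdb1 5.47 and 5.90 FPKM in KO_IR, against 7.45 and 8.01 FPKM in WT_IR, with calls that ended without KO_IR replicate 1, KO_IR replicate 2, WT_IR replicate 1 or WT_IR replicate 2 (adjusted p up to 0.119) and without KO_IR replicate 1, KO_IR replicate 2, WT_IR replicate 1 or WT_IR replicate 2 (adjusted p up to 0.12). Wiz, Dnmt3a, Cbx1 and Cbx3 were not called.

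Of 26 polycomb and histone deacetylase genes tested, 1 was called lower on the deposited scale, beside 13.5% of all genes, and 17 on the TPM scale, beside 37.9%. The gene called on the deposited scale was Ezh2, the methyltransferase of polycomb that rises with cell division, at 1.31 and 1.55 FPKM in KO_IR, against 2.99 and 2.73 FPKM in WT_IR, a difference of -0.67 ± 0.11 (SE, limma adjusted p = 0.00524). Of the germline genes listed, the sole one with a level high enough to test was Sycp3, a protein of meiotic chromosomes, at 4.48 and 4.11 FPKM in KO_IR, against 2.06 and 1.48 FPKM in WT_IR, a difference of 0.94 whose call ended without KO_IR replicate 1 or WT_IR replicate 2 (adjusted p up to 0.0777). Imprinted genes were called higher in 2 of 15 and lower in 2, together 26.7% beside 30.0% of all genes, and 4 lower on the TPM scale. Snrpn measured 3.63 and 3.71 FPKM in KO_IR, against 1.41 and 1.96 FPKM in WT_IR and Nnat 1.55 and 1.16 FPKM in KO_IR, against 3.21 and 3.18 FPKM in WT_IR, with the KO_IR libraries higher in Snrpn and lower in Nnat. Phlda2 differed by 0.89 and Grb10 by -0.46, with calls that ended without KO_IR replicate 1, WT_IR replicate 1 or WT_IR replicate 2 (adjusted p up to 0.0909) and without KO_IR replicate 1, KO_IR replicate 2, WT_IR replicate 1 or WT_IR replicate 2 (adjusted p up to 0.0918).

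Of 14 heat shock protein genes tested, 2 were called higher and 2 lower, against 2 and 5 on the TPM scale. On the deposited scale these were together 28.6%, beside 30.0% of all genes. The lower count was 1 without KO_IR replicate 1, KO_IR replicate 2 or WT_IR replicate 2. Hspb1, a small heat shock protein, measured 44.1 and 35.4 FPKM in KO_IR, against 256 and 261 FPKM in WT_IR, a difference of -2.68 ± 0.19 (SE, limma adjusted p = 0.000379), and the higher ones, the mitochondrial chaperones Hspd1 and Hspe1, differed by 1.09 and 0.83. Genes of ER stress and the amino acid response were called lower in 9 of 18 and higher in 2, against 15 lower and 1 higher on the TPM scale. The lower count was 5 without WT_IR replicate 2. Trib3, a pseudokinase induced by the factor Atf4, measured 0.916 and 0.754 FPKM in KO_IR, against 4.74 and 5.51 FPKM in WT_IR, Asns, the asparagine synthetase, 2.29 and 2.11 FPKM in KO_IR, against 8.52 and 8.66 FPKM in WT_IR, and Chac1, which degrades glutathione, 1.01 and 0.783 FPKM in KO_IR, against 3.35 and 6.28 FPKM in WT_IR. In KO_IR both libraries were lower in all 3. The higher members were Cth, which makes cysteine, at 60.8 and 51.9 FPKM in KO_IR, against 20.2 and 16.7 FPKM in WT_IR, and Herpud1 at 0.58, whose call ended without KO_IR replicate 1, KO_IR replicate 2, WT_IR replicate 1, KO replicate 1, KO replicate 2, WT replicate 1 or WT replicate 2 (adjusted p up to 0.203). Atf4 itself was not called.

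Glutathione and iron genes were called higher in 7 of 26 and lower in 3, against 4 and 7 on the TPM scale. Over all genes 16.6% were called higher and 13.5% lower, and on the TPM scale 9.18% and 37.9%. The higher count was 3 without WT_IR replicate 2, and 4 without WT_IR replicate 1, and the lower one 0 without WT_IR replicate 2, and 1 without KO_IR replicate 1, KO_IR replicate 2 or WT_IR replicate 1. Ggt1, the brush border enzyme that cleaves glutathione, measured 292 and 240.3 FPKM in KO_IR, against 96.8 and 87.6 FPKM in WT_IR. Hmox1, which breaks down heme, was lower at 38.2 and 23.7 FPKM in KO_IR, against 70.0 and 76.5 FPKM in WT_IR, with a call that ended without KO_IR replicate 1, KO_IR replicate 2, WT_IR replicate 1, WT_IR replicate 2, KO replicate 1 or KO replicate 2 (adjusted p up to 0.18). Cytosolic ribosomal protein genes were called lower in 8 of 24, all by less than 2-fold, and all 24 on the TPM scale. The count was 0 without WT_IR replicate 2, 1 without WT_IR replicate 1, 3 without KO_IR replicate 2, 4 without KO replicate 1 or KO replicate 2, and 5 without WT replicate 1 or WT replicate 2. Against 0 higher and 12 lower on the TPM scale, 4 of 24 autophagy and lysosome genes were called higher and 4 lower on the deposited scale. Together these were 33.3%, near the 30.0% of all genes. The higher count was 0 without WT_IR replicate 1 or WT_IR replicate 2, and 1 without KO_IR replicate 1. Ctsd, a lysosomal protease, measured 214 and 226 FPKM in KO_IR, against 409 and 419 FPKM in WT_IR, Ctss, a protease of antigen-presenting cells, 48.0 and 37.6 FPKM in KO_IR, against 76.1 and 90.8 FPKM in WT_IR, and Grn, a lysosomal growth factor, 75.0 and 68.4 FPKM in KO_IR, against 97.0 and 104.5 FPKM in WT_IR, lower in both KO_IR libraries. Of the YAP targets and partners 3 of 12 were called lower, and 6 on the TPM scale. The count was 1 without KO_IR replicate 2 or WT_IR replicate 1, and 2 were called higher without KO_IR replicate 2. Axl, a receptor kinase, was one of the 3, at 13.5 and 14.1 FPKM in KO_IR, against 24.3 and 24.2 FPKM in WT_IR.

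Male-biased kidney genes were higher in 10 of 13 tested and lower in 2. Slc22a28 measured 38.4 and 40.3 FPKM in KO_IR, against 7.56 and 5.50 FPKM in WT_IR, Ugt2b38 264 and 317 FPKM in KO_IR, against 104.8 and 91.9 FPKM in WT_IR and Prlr, the prolactin receptor, 2.99 and 3.43 FPKM in KO_IR, against 0.571 and 0.629 FPKM in WT_IR. The KO_IR libraries were higher in each. The lower members were Timd2 at -1.02 and Cyp4a12b at -0.72, the call of Cyp4a12b ending without KO_IR replicate 1, WT_IR replicate 1 or WT_IR replicate 2 (adjusted p up to 0.0925). Of the renin-angiotensin and mineralocorticoid genes 4 of 9 were called higher and 1 lower, and 2 higher on the TPM scale. The higher count was 2 without WT_IR replicate 1 or WT_IR replicate 2. Anpep is counted there too, and Sgk1, a kinase induced by aldosterone, measured 32.3 and 33.8 FPKM in KO_IR, against 18.2 and 14.6 FPKM in WT_IR, with a call that ended without WT_IR replicate 2 (adjusted p up to 0.052). Agt, the angiotensin precursor, was lower at 55.3 and 57.5 FPKM in KO_IR, against 73.4 and 70.7 FPKM in WT_IR, with a call that ended without KO_IR replicate 1, KO_IR replicate 2, WT_IR replicate 1 or WT_IR replicate 2 (adjusted p up to 0.108).

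Clock genes and immediate early genes are given for what they show of single libraries. Clock genes were called higher in 8 of 17 tested and lower in 2, with a median difference of 0.86, and the higher count was 4 without WT_IR replicate 2, and 5 without KO_IR replicate 1 or KO_IR replicate 2. The lower count was 0 without KO_IR replicate 2, WT_IR replicate 2, KO replicate 1 or KO replicate 2, and 1 without KO_IR replicate 1. Dbp, an output gene of the clock, measured 43.3 and 38.5 FPKM in KO_IR, against 8.23 and 2.94 FPKM in WT_IR, and 50.6 and 51.0 FPKM in KO, against 20.5 and 6.29 FPKM in WT, and its call ended without WT_IR replicate 2 (adjusted p up to 0.0513). Ciart, a repressor of the clock, measured 4.88 and 5.10 FPKM in KO_IR, against 0.975 and 0.762 FPKM in WT_IR, and Arntl, which encodes the activator BMAL1, 0.376 and 0.383 FPKM in KO_IR, against 1.25 and 2.75 FPKM in WT_IR. The difference of Arntl was -1.07 and its call ended without KO_IR replicate 1, KO_IR replicate 2, WT_IR replicate 2, KO replicate 1 or KO replicate 2 (adjusted p up to 0.183). The knockout libraries lay high for Dbp and low for Arntl in both conditions, and the 2 WT libraries differed from one another. The part of the hour of harvest in these differences was not tested.

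Immediate early genes, which many cells switch on within minutes of a stimulus, set KO_IR replicate 1 apart. Fos measured 15.5 and 1.66 FPKM in KO_IR, against 4.37 and 5.52 FPKM in WT_IR, Egr1 30.9 and 3.601 FPKM in KO_IR, against 11.5 and 12.1 FPKM in WT_IR, Nr4a1 30.5 and 1.64 FPKM in KO_IR, against 3.54 and 4.25 FPKM in WT_IR and Atf3 60.2 and 3.72 FPKM in KO_IR, against 13.8 and 18.96 FPKM in WT_IR. KO_IR replicate 1 was the highest of the 8 libraries and KO_IR replicate 2 lay below both WT_IR libraries in each. None of these 4 was called, and the difference of Fos was 0.16 on the deposited scale and -0.24 on the TPM scale. Fosl1, Klf4 and Fosl2, which did not follow that pattern, were called lower, with differences of -1.66, -0.97 and -1.22. Fosl1, a subunit of AP-1, measured 1.14 and 0.826 FPKM in KO_IR, against 4.04 and 6.75 FPKM in WT_IR. Of the 14 genes of the list tested 5 were called lower, a count of 3 without WT_IR replicate 1 or WT_IR replicate 2, and 10 without KO_IR replicate 1. Of the same 14, 0 were called higher, a count of 6 without KO_IR replicate 2. The part of KO_IR replicate 1 in the calls over all genes was not tested, as a fit without it leaves a lone KO_IR library.

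**Figure D5:**
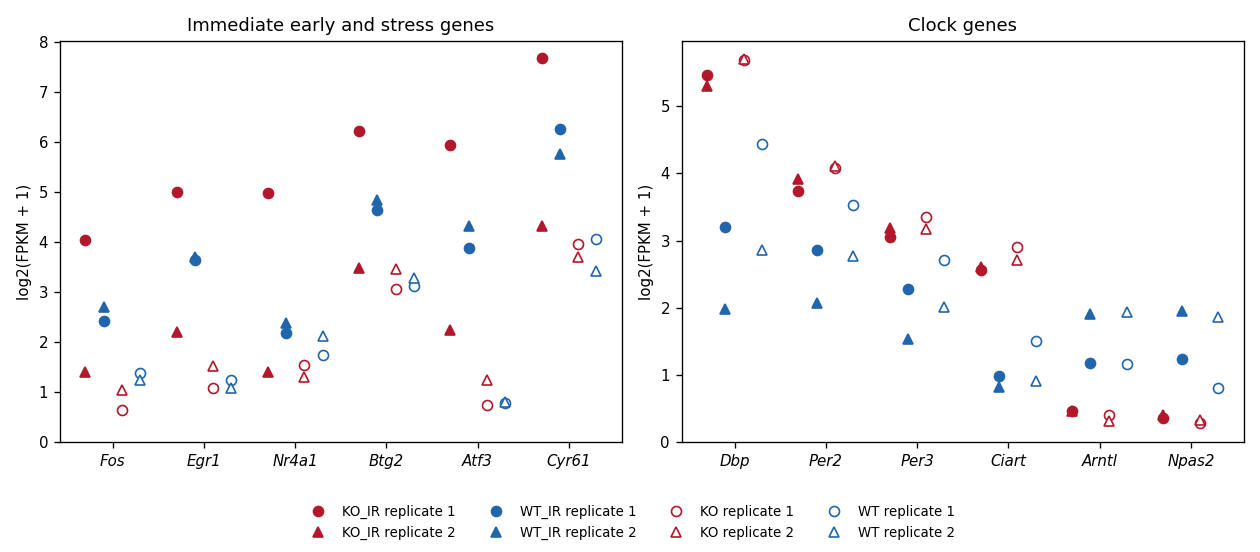
Level (log2(FPKM + 1)) of 6 immediate early or stress genes and 6 clock genes in each of the 8 libraries, knockout in red and wild type in blue, after ischemia filled and without ischemia open, with circles for replicate 1 and triangles for replicate 2. KO_IR replicate 1 is the highest library for all 6 genes on the left. On the right the knockout libraries lie close together and the wild-type ones apart.

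Noncoding genes were also called, more of them higher than lower in KO_IR on the deposited scale. Of 376 lincRNAs tested, 69 were called higher and 11 lower, together 21.3%. Of 430 antisense transcripts 57 were called higher and 15 lower, together 16.7%. Both shares lay below the 30.0% of all genes. Of 12701 protein-coding genes 2228 were called higher and 1979 lower, together 33.1%. On the TPM scale 19.5% of the calls over all genes were higher ones, and counts of noncoding genes on that scale are not reported here. Strand was not given for the counting, so antisense transcripts and their partner genes cannot be told apart. C030005K06Rik measured 13.3 and 14.8 FPKM in KO_IR, against 0.629 and 0.347 FPKM in WT_IR, a difference of 3.35 ± 0.17 (SE, limma adjusted p = 0.000203), and Gm33424 5.97 and 5.98 FPKM in KO_IR, against 0.220 and 0.192 FPKM in WT_IR. Without ischemia C030005K06Rik measured 17.5 and 17.8 FPKM in KO, against 8.43 and 5.79 FPKM in WT, so that the WT_IR libraries stood apart. The other 3 of the 5 that rose most, among genes not annotated as protein-coding, were BC024386, 9030619P08Rik and Gm24515. The 5 that fell most were Traj1, Gm42031, Sprr2g, Gm25965 and Gm42793. Gm42031 measured 3.72 and 1.77 FPKM in KO_IR, against 23.4 and 20.5 FPKM in WT_IR and Gm42793 2.03 and 2.82 FPKM in KO_IR, against 20.9 and 13.5 FPKM in WT_IR.

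The genotype differences with and without ischemia share no library, though they come from the same fit. With quantile normalization or from KO and WT alone, the one without ischemia had 0 calls. Of the 4689 genes called after ischemia 18 were also called in the same direction without it, which is 0.384% of the first calls and 52.9% of the 34 second ones. Over all genes 16.6% were called higher and 13.5% lower after ischemia. Both comparisons take the spread of a gene from the same fit, so their calls are not independent. Of the 18 genes, 11 were higher and 7 lower. The higher ones included Slc7a12, an amino acid transporter, at 31.5 and 35.9 FPKM in KO_IR, against 5.10 and 3.84 FPKM in WT_IR, and 19.5 and 24.6 FPKM in KO, against 5.42 and 4.68 FPKM in WT, Sycn, Ciart, Prlr, Alms1-ps2, Gm15241, Gm23172 and Ces1g, a carboxylesterase, at 3.04 and 2.42 FPKM in KO_IR, against 0.118 and 0.0824 FPKM in WT_IR, and 3.13 and 3.26 FPKM in KO, against 0.749 and 0.704 FPKM in WT. The lower ones were Ccnb2, Ube2c, Mki67, Rrm2, Ndrg1, Gm37419 and C4b. Ndrg1, a stress-induced gene, measured 246 and 207 FPKM in KO_IR, against 322 and 377 FPKM in WT_IR, and 218 and 184 FPKM in KO, against 466 and 616 FPKM in WT. Its call after ischemia ended without KO_IR replicate 1, KO_IR replicate 2, WT_IR replicate 1 or WT_IR replicate 2 (adjusted p up to 0.173).

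The 3 genes called in opposite directions were Tyrobp, Ube2l6 and Mir5107. Tyrobp, the signalling adaptor DAP12 of myeloid cells, measured 23.4 and 26.2 FPKM in KO_IR, against 45.003 and 48.6 FPKM in WT_IR, a difference of -0.89 ± 0.11 (SE, limma adjusted p = 0.00176). Without ischemia it measured 9.77 and 9.91 FPKM in KO, against 4.26 and 5.33 FPKM in WT, a difference of 0.91 ± 0.11 (SE, limma adjusted p = 0.0478). Ube2l6, the conjugating enzyme of the interferon-induced modifier ISG15, measured 9.40 and 8.80 FPKM in KO_IR, against 13.1 and 12.9 FPKM in WT_IR, and 6.05 and 6.56 FPKM in KO, against 2.91 and 3.53 FPKM in WT, and its call after ischemia ended without KO_IR replicate 2, WT_IR replicate 1 or WT_IR replicate 2 (adjusted p up to 0.0656). In both the order of the genotypes turned round with ischemia.

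The interaction was called for 2544 genes, 16.3% of those tested, 1502 with a positive value (9.62%) and 1042 with a negative one (6.68%). It shares the KO_IR and WT_IR libraries with the main comparison, and 2374 of its genes were called there too, which is 93.3% of the interaction calls and 50.6% of the 4689. Genes with the largest positive interaction were Egf, S100g, Slc22a8, Klk1 and Calb1, and those with the largest negative one Havcr1, Lcn2, Aoc1, Vcam1 and C3. Aoc1, an amine oxidase, measured 10.7 and 22.5 FPKM in KO_IR, against 74.6 and 59.3 FPKM in WT_IR, and 6.47 and 9.88 FPKM in KO, against 3.05 and 1.73 FPKM in WT.

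Genes near Ehmt2 were counted separately. Of 102 genes tested whose start lies within 1 Mb of that of Ehmt2, 7 were called higher and 31 lower in KO_IR, together 37.3% beside 30.0% of all genes, with a median difference of -0.26. Over all genes 16.6% were called higher and 13.5% lower, with a median difference of -0.0077. The calls near Ehmt2 were thus mostly lower ones, which those over all genes were not. Many are genes of the major histocompatibility complex and of complement. Apom, which carries sphingosine phosphate, measured 84.2 and 52.1 FPKM in KO_IR, against 12.7 and 12.9 FPKM in WT_IR, a difference of 2.29 ± 0.20 (SE, limma adjusted p = 0.000583). Tubb5, a tubulin, measured 28.4 and 27.9 FPKM in KO_IR, against 78.1 and 73.9 FPKM in WT_IR, a difference of -1.40 ± 0.072 (SE, limma adjusted p = 0.000203). Without ischemia 1 of the 102 was called, the complement gene C4b at 5.47 and 5.34 FPKM in KO, against 13.04 and 15.9 FPKM in WT, a difference of -1.26 ± 0.14 (SE, limma adjusted p = 0.0445). After ischemia C4b measured 14.3 and 11.03 FPKM in KO_IR, against 18.8 and 16.8 FPKM in WT_IR, with a call that ended without KO_IR replicate 2, WT_IR replicate 1, WT_IR replicate 2, KO replicate 1 or KO replicate 2 (adjusted p up to 0.191).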

How the data were processed

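RNA of whole kidney was measured in 8 libraries, 2 in each of KO_IR, WT_IR, KO and WT, each pooled from 3 mice per the labels. What the authors deposited is 1 table with FPKM of 54251 genes. Alignment with HISAT2 2.0.5 to mm10 (GRCm38.p6) is named in the submitters' processing notes. For the counting tool, its use of strand and the annotation release nothing is given in the sources used here. Multiplied by gene length, the deposited FPKM came out as whole steps in each library for 100% of genes (tolerance 1e-06). This gave back the fragments, from 14965670 to 17596690 a library. The step implies a denominator of 0.970 and 1.03 times the gene total in KO_IR, 1.18 and 1.19 times in WT_IR, and 0.921 to 0.951 times in KO and WT, in the ratio of median-of-ratios size factors. The floor of 3 fragments equals 0.148 to 0.206 FPKM at a length of 1 kb and covers counting error only.

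The 15607 genes averaging 0.5 FPKM or more across libraries were fitted in limma 3.58.1 (R 4.3.3) on log2(FPKM + 1), so that differences of low genes are understated. The fit had 1 mean per group, a mean-variance trend, 4 residual degrees of freedom and 3.04 from the prior. P-values were adjusted by Benjamini-Hochberg over all genes tested, and an adjusted p under 0.05 was called. Errors are standard errors of the fit. They measure the spread between pools, and an exact permutation test of 2 against 2 libraries cannot go below p = 0.333. The steps were tested on simulated data.

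The members and the 55 gene lists (38 of functions, 17 of cell type markers, 1025 entries of which 1021 were found) were chosen with earlier results of these data known. Lists are described by counts and medians, without a set test. Genes were named by a rule. It always takes Ehmt2, Havcr1, Kl and Lcn2. Next come the 15 rising and 15 falling coding genes with the largest fold, the 5 each way of other biotypes, up to 8 each way called in both genotype comparisons and 5 each way of the interaction. From each list come up to 6 members with the smallest p, and members without a call where there were at most 5. Some genes that the rule takes are not reported here. Further genes, the promoter motifs and the promoters were chosen after values were seen. Python 3.11.15 with pandas 2.3.3 and matplotlib 3.10.9 made tables and figures. Alternatives were other pseudocounts, filters, scalings and limma options, voom on recovered fragments, a replicate block, only 2 groups, and leaving out each library in turn.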

Additional observations from a re-analysis of the deposited data

Results flagged for a closer look

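Results are named here where the genotype difference after ischemia and that without it differed by the test of the interaction in limma. The interaction was called for 2544 genes. Of the 381 genes that the naming rule picked, 212 were called both in KO_IR against WT_IR and in the interaction. Over all 15607 genes tested, 2374 were called in both. The rule takes many genes by the p or the size of these same differences, so a larger share was fixed by the choice.

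The interaction was 3.98 ± 0.25 (SE, limma adjusted p = 0.00234) for Egf, 3.72 ± 0.26 (SE, limma adjusted p = 0.00276) for S100g and 3.71 ± 0.26 (SE, limma adjusted p = 0.00276) for Slc22a8. It was 3.56 ± 0.17 (SE, limma adjusted p = 0.00101) for Klk1, 3.51 ± 0.29 (SE, limma adjusted p = 0.00325) for Calb1 and 1.59 ± 0.27 (SE, limma adjusted p = 0.0105) for Kl. In these 6 genes of differentiated tubules the difference KO_IR minus WT_IR was positive and exceeded KO minus WT. The interaction was -3.95 ± 0.94 (SE, limma adjusted p = 0.032) for Havcr1, -3.49 ± 0.58 (SE, limma adjusted p = 0.0103) for Lcn2 and -3.46 ± 0.50 (SE, limma adjusted p = 0.00734) for Aoc1. It was -3.25 ± 0.31 (SE, limma adjusted p = 0.00367) for Vcam1 and -3.16 ± 0.36 (SE, limma adjusted p = 0.00427) for C3. In these 5 genes KO_IR minus WT_IR was negative and lay below KO minus WT.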

How the results depend on the processing

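Each group has 2 pools, so a fit without 1 library rests on a lone sample that is assumed to vary like the other groups. Of the 4689 genes called, 2101 were called in every such fit and 2588 were lost in at least 1. Genes called higher in KO_IR numbered 1554 to 2552 in these fits, and those called lower 1058 to 2007, with the fewest without WT_IR replicate 2. The interaction had 1289 to 2315 and KO against WT 0 to 17, the 0 without KO replicate 1 (1407 genes at an unadjusted p under 0.05) or WT replicate 1 (1635). A fold of at least 2 left 682 higher, 456 lower, 1150 interaction and 25 KO against WT calls. A minimum mean of 5 FPKM gave 1128 lower genes. On the TPM scale 1432 were higher, 5917 lower and 4528 called in the interaction. That scale removes the scaling in the deposited values and divides by the summed FPKM of each library. These sums were 399284 and 362026 in KO_IR, against 293646 and 298778 in WT_IR. Without a filter the interaction had 1670.

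KO against WT had 7 calls with a pseudocount of 5, 19 without a filter, 16 at a minimum mean of 5 FPKM, 61 with voom, and 0 with quantile normalization (1757 at an unadjusted p under 0.05) or from those 2 groups alone (1755). The cause was not tested. With the replicate block it had 9, against 2533 higher and 2043 lower genes in KO_IR against WT_IR. Deviations of same-numbered libraries correlated at 0.00586 between KO_IR and WT_IR, at -0.122 between KO and WT, at 0.164 between KO_IR and KO and at 0.113 between WT_IR and WT. Not every pair of groups was above 0.1, so the numbers were not taken as pairs.

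Of the 301 genes named in the report, those that changed sign had no call. On the TPM scale the differences were -0.26 for Cbx1, -0.23 for Cdhr5, -0.34 for Col5a2, -0.35 for Ctns, -0.15 for Ddc, -0.22 for Dnmt3a, -0.22 for Dpp4, -0.25 for Fadd, -0.24 for Fos, -0.16 for Irf7, -0.31 for Ldha, -0.33 for Pkm, -0.16 for Sqle and -0.25 for Tyms. With quantile normalization they were -0.27 for Cdhr5, -0.012 for Col5a2, -0.018 for Ctns, 0.040 for Erbb4, -0.0024 for Irf7, -0.33 for Ldha, 0.0065 for Ocrl, -0.33 for Pkm and 0.032 for Sirt1, and with a pseudocount of 5 0.17 for Atf3 and 0.067 for Egr1. Leaving out 1 library gave ranges of -1.87 to 1.83 for Atf3, -0.17 to 0.19 for Col5a2, -0.078 to 0.084 for Ctns, -0.090 to 0.47 for Ddc, -0.035 to 0.24 for Dnmt3a, -1.47 to 1.32 for Egr1, -0.041 to 0.85 for Ehhadh, -0.15 to 0.11 for Erbb4, -1.15 to 1.47 for Fos, -0.14 to 0.11 for Hif1a, -0.41 to 0.11 for Igf1, -0.29 to 0.0085 for Il1b, -0.89 to 2.69 for Nr4a1, -0.24 to 0.019 for Oas1a, -0.092 to 0.15 for Pkm, -0.56 to 0.34 for Thbs1 and -0.063 to 0.18 for Tyms.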
